A study of Mus musculus with 15 samples.

Results

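The 1512 probes of mouse chromosome 12 (Chr12) were examined in liver tumours and unaffected livers by array CGH (comparative genomic hybridisation), where tissue DNA and reference DNA carrying different dyes compete for short probes printed on a slide. They were all distinct non-control probes whose position in the scanner files began with chr12, and made up 3.71% of the 40726 autosomal probes and 1512 of 42404 distinct probes on the array. The first started at position 3238250 and the last ended at position 120699455, a span of 117 Mb. The median distance between neighbours was 25.7 kb, against 21.5 kb over all autosomes, and the largest gap ran from position 17647921 to 25231901. The files do not name their genome build, and positions here are the deposited ones. Of the Chr12 probes 1253 were 60 bases long, the shortest had 45 bases, and their median GC content of 36.7% was that of all autosomal probes. The probes carried 710 names of the array design, of which 391 were current gene symbols and 90 older ones, and 241 probes carried a position instead of a name.

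The mice of the study carried floxed alleles of Mad2, the name used in the labels for the spindle checkpoint gene Mad2l1, and of p53 (Trp53), with Cre recombinase driven by the Albumin promoter. That promoter is active in hepatocytes but not in every cell type of a liver. In total 15 arrays covered 5 hepatocellular carcinomas (HCC) and 3 unaffected livers of 3 mice, all of strain C57BL/6.129-Mad2flox,p53flox,AlbuminCre. Mouse 3151, a female of 16.4 months with the genotype Mad2(f/f) p53(f/+), gave HCC 1, HCC 2 and unaffected liver 1. Mouse 3760, a male of 13.8 months with the genotype Mad2(f/f) p53(f/f), gave HCC 3 and unaffected liver 2, and mouse 4033, a male of 13.9 months with that same genotype, gave HCC 4, HCC 5 and unaffected liver 3. The unaffected livers thus carried the same floxed alleles and Cre as the tumours. Every tissue was set against normal liver DNA of strain C57BL/6.129 from a mouse of the other sex, male for mouse 3151 and female for mice 3760 and 4033. With 1 array for HCC 3 and both dye orientations for the other 7 tissues, the tissue was the replicate. In whole-tissue DNA a change in part of the cells cannot be told apart from a smaller change in all of them.

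Loss of the spindle checkpoint lets chromosomes mis-segregate whole, so that a tumour can gain or lose all probes of a chromosome together. Chr12 of the mouse carries the oncogene Mycn, the apolipoprotein gene Apob, the hypoxia factor gene Hif1a, the kinase gene Akt1, the Serpina cluster of secreted protease inhibitors, the imprinted Dlk1-Dio3 domain and, near its distal end, the immunoglobulin heavy chain locus. The heavy chain locus and serpin clusters are known as places where mouse strains differ in sequence and copy number.

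Some probes of Chr12, alone or beside a neighbour shifted alike, stood far from the median of the chromosome and separated the mice. Their sequences, read from the scanner files and written 5′ to 3′ in lower case, are shown here because a log2 ratio of such a probe depends on its own target sequence. Each line gives the probe number in order along Chr12, the name or the nearest names on either side, and the position in the files.
probe 247, between Tmem18 and AK134499, chr12:31341023-31341082: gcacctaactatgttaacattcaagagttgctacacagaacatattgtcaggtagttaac
probe 290, Nampt, chr12:33531542-33531601: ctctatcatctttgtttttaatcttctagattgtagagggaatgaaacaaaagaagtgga
probe 315, Snx13, chr12:35734726-35734785: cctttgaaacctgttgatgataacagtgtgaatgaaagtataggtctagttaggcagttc
probe 600, Gm71, chr12:70678649-70678708: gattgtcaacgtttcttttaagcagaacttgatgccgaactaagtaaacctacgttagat
probe 601, Gm71, chr12:70680913-70680972: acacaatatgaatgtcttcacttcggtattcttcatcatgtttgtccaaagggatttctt
probe 1164, between AK087910 and Catsperb, chr12:102597916-102597975: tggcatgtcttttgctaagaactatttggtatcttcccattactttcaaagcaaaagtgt
probe 1240, between Serpina1f and Serpina11, chr12:105178127-105178186: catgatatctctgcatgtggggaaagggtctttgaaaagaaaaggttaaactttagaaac
probe 1459, AK136471, chr12:115151862-115151921: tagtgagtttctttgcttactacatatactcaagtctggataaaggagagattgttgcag
probe 1462, AK136471, chr12:115837734-115837793: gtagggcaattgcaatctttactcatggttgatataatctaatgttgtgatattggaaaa
probe 1465, AY182512, chr12:117190567-117190625: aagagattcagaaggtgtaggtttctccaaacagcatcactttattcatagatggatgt
probe 1471, Vipr2, chr12:117377623-117377679: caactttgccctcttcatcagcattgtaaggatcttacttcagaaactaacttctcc
The pair of probes either side of the step found in HCC 1 had these sequences.
last probe before the step, Ap4s1, chr12:52823947-52824006: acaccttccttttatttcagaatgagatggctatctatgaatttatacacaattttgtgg
first probe after it, AK077185, chr12:52847090-52847149: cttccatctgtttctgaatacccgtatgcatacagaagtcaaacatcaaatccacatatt

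Chr12 moved as a whole chromosome in the tumours, upward in both tumours of mouse 3151 and downward in HCC 3 and HCC 5. The level, the mean log2 ratio of tissue over reference over the 1512 probes with each array centred on its median autosomal probe, was 0.45 in HCC 1 and 0.56 in HCC 2. HCC 3 of mouse 3760 was at −0.28, and of the tumours of mouse 4033 HCC 4 was at 0.10 and HCC 5 at −0.37. The unaffected livers lay at 0.01, −0.04 and 0.00 for livers 1 to 3. All 5 HCC were farther from 0 than any unaffected liver, but on both sides of it, so that the signed levels of the groups overlapped. For scale, 1 copy gained in every cell would add 0.58 to the log2 ratio of a chromosome with 2 copies and 1 copy lost would take away 1, and the X chromosome, which differed by 1 copy between tissue and reference, had a mean absolute level of 0.89 in the unaffected livers.

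At a threshold of 0.3 in either direction, 3 of 5 HCC had a whole-chromosome change of Chr12, 2 gains and 1 loss, and no unaffected liver did. Over all autosomes 36.8% of the 95 autosome levels in HCC passed the same threshold. HCC 3 missed it narrowly, with 9.52% of its probes above 0, against 0.728% in HCC 5. In HCC 2 98.7% of the probes lay above 0 and in HCC 1 95.9%, while in HCC 4 75.3% did. In the unaffected livers the share lay between 38.2% and 57.5%. In HCC 2 Chr12 was the highest of the 19 autosomes, and in HCC 1 it was second. By absolute level its rank was 6 in HCC 3 and in HCC 5, and 15 in HCC 4.

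The forward and dye-swap arrays gave 0.43 and 0.48 for HCC 1, 0.55 and 0.56 for HCC 2, 0.08 and 0.12 for HCC 4, and −0.36 and −0.39 for HCC 5. The widest gap between orientations was 0.11, in unaffected liver 1, which is more than the level of HCC 4. The 2 tumours of mouse 3151 differed from each other by 0.10, about as much as that gap. The 2 tumours of mouse 4033 differed by 0.47, HCC 4 above 0 and HCC 5 below.

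Gains and losses offset each other in the mean of the groups. The mean level of the HCC was 0.09 ± 0.42 (SD, n = 5) and that of the unaffected livers was −0.01 ± 0.03 (SD, n = 3). The difference of 0.10 ± 0.15 (SE) did not pass the test (limma over 19 autosomes, adjusted p = 0.704), in which 5.26% of the autosomes were called and 15.8% had an unadjusted p under 0.05, and an exact two-sided permutation test gave p = 0.679. Its direction turned without HCC 2, to −0.020, and with scan day or slide as a block, to −0.026 and −0.18. Centring on the mode of the autosomal probes, which moved the baseline of HCC 5 by 0.25, that of HCC 1 by 0.11 and that of HCC 2 by −0.10, gave levels of 0.34, 0.65, −0.27, 0.06 and −0.62 in HCC 1 to 5 and a difference of 0.04.

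Scan day moved with the direction of the change. HCC 1, HCC 2 and HCC 4, all above 0, were scanned on day 2, and HCC 3 and HCC 5, both below 0, on day 1. The extraction protocol given in the file headers followed the day. Within day 2 the HCC lay 0.36 above the unaffected liver of that day, and within day 1 the difference from the 2 livers of that day was −0.31. The livers of both days lay near 0. The part of the scan day in these directions was not tested.

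The distance of Chr12 from 0, without regard to sign, was larger in HCC. The absolute level averaged 0.35 ± 0.17 over the HCC (SD, n = 5) and 0.02 ± 0.02 over the unaffected livers (SD, n = 3), and the difference was 0.34 (exact two-sided permutation test over 56 splits, p = 0.0357, where the smallest p possible was 0.0179). All 5 HCC were above all 3 livers, as they were for 57.9% of the 19 autosomes. The difference was 0.31 within scan day 1 and 0.36 within day 2. It did not pass under normexp background correction, mode centring or forward arrays alone (exact permutation p = 0.0536 for each), nor without any one tissue other than HCC 4, nor with mouse as a replicate block, where 3 mice cannot give a p under 0.25.

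Among the 19 autosomes the spread of the levels over the 5 HCC was widest for Chr12, with an SD of 0.42 against a median of 0.18 and a next value of 0.28 for the others. No test of this order was run. Chr6 and Chr13 took the sign of Chr12 in all 5 HCC, and Chr11 took the opposite sign in all 5. These autosomes were singled out after the levels of all were seen. The signs also went with scan day and extraction protocol, whose part was not tested. Chr6 lay at 0.27, 0.32, −0.03, 0.31 and −0.33 in HCC 1 to 5, and Chr13 at 0.03, 0.10, −0.31, 0.11 and −0.49. The livers lay between −0.06 and 0.02 on both, so that Chr6 in HCC 3 and Chr13 in HCC 1 were no farther from 0 than a liver.

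Along the chromosome the gains and losses ran from end to end. Of 30 windows of 50 or 51 neighbouring probes, all 30 lay above 0.3 in HCC 1 and in HCC 2, from 0.32 to 0.66 and from 0.51 to 0.67. All 30 lay below −0.3 in HCC 5, from −0.45 to −0.31. HCC 3 had all of its windows below 0, from −0.45 to −0.19, with 5 past −0.3. Its lowest were windows 30 and 25, at −0.45 and −0.39, where liver 2 of that mouse was at −0.14 and −0.12. The highest window of HCC 2 was also window 30, where liver 1 of its mouse was at 0.13. HCC 4 had 29 windows above 0, between −0.02 and 0.15, and none past the threshold. In the unaffected livers no window passed 0.3, and the extremes were −0.14 in liver 2 and 0.13 in liver 1, both in the last window. No Chr12 window was called between HCC and livers, where 3.81% of 813 autosomal windows were (limma, adjusted p under 0.05), nor at an unadjusted p under 0.05, where 9.72% were. Windows that follow the whole chromosome could hardly pass, with HCC on both sides of the livers.

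HCC 1 had 1 step inside the chromosome, with windows 1 to 8 between 0.55 and 0.66 and windows 9 to 30 between 0.32 and 0.50. In HCC 1 minus its own liver, segmentation with at least 5 probes a segment put 2 segments on Chr12, of 440 probes with a mean of 0.61 and of 1072 probes with a mean of 0.37. The step lay between a probe of Ap4s1, a subunit of an adaptor complex of vesicle transport, ending at position 52824006, and a probe named AK077185 starting at position 52847090. Both sides stayed above 0. The position was chosen by the data, so its size is a description: left minus right was 0.22 against the reference, with 0.20 and 0.24 from its forward and dye-swap arrays.

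The same 2 groups of probes differed by −0.02, −0.01, −0.02 and −0.01 in HCC 2 to 5, and by −0.02, 0.03 and −0.02 in unaffected livers 1 to 3. HCC 2 minus the same liver had 0.54 on either side. With the GC content of the probes regressed out, an alternative added after the data were seen, the step in HCC 1 was 0.22. The probes next to it did not place it sharply. In HCC 1 minus its own liver the last 6 probes on the left, those of Coch, Strn3 and Ap4s1, lay between 0.24 and 0.68, and the first 6 on the right between −0.13 and 0.74. Segmentation put 1 segment on Chr12 in each of HCC 2, HCC 3, HCC 4 and HCC 5 minus own liver.

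Genes with roles in growth lay near the level of their chromosome. Of 29 measured genes of the growth control list none was called between HCC and livers (limma over 19973 autosomal genes, adjusted p under 0.05), as was none of the 710 Chr12 genes and 0% of all autosomal genes. At an unadjusted p under 0.05 the counts were 0 of 710 Chr12 genes and 8.12% of all. With Chr12 raised in some HCC and lowered in others, a gene that follows its chromosome could hardly pass. The counts of genes called, here and in the lists below, thus say little about single genes. The median of the list in HCC 1 to 5 was 0.44, 0.59, −0.29, 0.14 and −0.34, beside 0.43, 0.56, −0.28, 0.13 and −0.36 over all Chr12 genes. Its median difference of HCC minus livers was 0.10, as over all 710 genes.

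Mycn, which encodes a transcription factor that drives growth, had a log2 ratio of 0.79, 0.51, −0.40, 0.21 and −0.40 in HCC 1 to 5 and −0.05, −0.01 and 0.02 in livers 1 to 3, on 1 probe. It lay on the higher side of the step in HCC 1. Akt1, a kinase of the insulin and growth factor pathway, lay on the lower side and gave 0.44, 0.53, −0.36, 0.33 and −0.32 in the HCC, and −0.10, −0.15 and 0.00 in the livers. Both genes were above every liver in HCC 1, HCC 2 and HCC 4 and below every liver in HCC 3 and HCC 5.

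Hif1a, the oxygen-regulated transcription factor, gave 0.44, 0.75, −0.07, −0.01 and −0.32 in the HCC and 0.30, 0.07 and 0.04 in the livers. Max, the binding partner of the Myc proteins, gave 0.34, 0.33, −0.36, 0.06 and −0.25 in the HCC and 0.02, −0.02 and 0.13 in the livers. Fos, an immediate early transcription factor, gave 0.30, 0.60, −0.22, 0.15 and −0.34 against 0.08, 0.02 and 0.05. For Hif1a and Max only HCC 1 and HCC 2 lay above all 3 livers.

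The list's highest mean difference was 0.23, for Foxa1, a pioneer factor of liver development, on 1 probe (limma, adjusted p = 0.79). Foxa1 lay at 0.67, 0.59, −0.48, 0.33 and −0.37 in the HCC, and the livers spanned −0.13 to 0.00.

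Among 15 measured genes of DNA repair and cell division none was called. Smc6, a subunit of the complex that resolves recombination intermediates, had the highest difference, 0.24, with 0.63, 0.69, −0.26, 0.09 and −0.22 in the HCC and −0.13, −0.01 and −0.01 in the livers. Xrcc3, a recombination factor, had the lowest, −0.10, on 1 probe that read 0.30, 0.34, 0.06, −0.16 and −0.39 in the HCC and 0.28, 0.02 and 0.10 in the livers. The list's medians were 0.43, 0.58, −0.20, 0.09 and −0.39 in HCC 1 to 5.

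Genes of liver metabolism gave the same picture, with none of 18 called and medians of 0.40, 0.54, −0.28, 0.13 and −0.38 in HCC 1 to 5. Apob, the structural protein of very low density lipoprotein, read 0.65, 0.59, −0.51, 0.30 and −0.31 in the HCC and −0.02, 0.00 and 0.03 in the livers, over 3 probes. Rdh11, a retinal reductase, had the list's highest difference, 0.24, and Aldh6a1, an enzyme of valine breakdown, its lowest, −0.11. Aldh6a1 read 0.32, 0.39, −0.20, −0.07 and −0.35 in the HCC and 0.24, 0.04 and 0.12 in the livers.

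The 11 measured Serpina genes, which encode secreted inhibitors of proteases and carriers of hormones, had medians of 0.43, 0.54, −0.36, 0.22 and −0.36 in HCC 1 to 5, and none was called. Serpina1f was highest by mean difference, at 0.14, and Serpina3b lowest, at −0.08. Of the imprinted domain 3 genes were measured, each on 1 probe. Dlk1, which encodes a membrane protein of the Notch ligand family, read 0.41, 0.67, −0.29, 0.41 and −0.30 in the HCC, and Rtl1, a gene derived from a retrotransposon, read −0.21, 0.69, 0.12, 0.01 and −0.34. Dio3, the deiodinase that inactivates thyroid hormone, had the highest difference of all genes on these lists, 0.28 (adjusted p = 0.707), with HCC at 0.40, 0.25, 0.08, −0.16 and −0.37 and livers at −0.48, −0.29 and 0.06. It was 0.15 without liver 1 and 0.42 without liver 3. Of the heavy chain list 3 flanking genes were measured and none was called. The list's medians were 0.24, 0.42, −0.75, 0.14 and −0.26 in HCC 1 to 5, where all Chr12 genes had −0.28 in HCC 3. With each tissue's median Chr12 probe subtracted, 1 of the 3 had an unadjusted p under 0.05 (limma), where 1.55% of all genes did. Crip1, which encodes a LIM domain protein, had the highest mean difference of the 3, 0.07, and Tmem121, a membrane protein gene, the lowest, −0.20.

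Relative to the chromosome, where each tissue's median Chr12 probe was subtracted, the genes differed little between HCC and livers. None of 710 Chr12 genes was called, as was 0% of all autosomal genes, and 5 of the 710 had an unadjusted p under 0.05, where 1.55% of all genes did. Relative differences ran from −0.51 to 0.33. Among genes with at least 2 probes the 5 with the widest relative difference were AY182512, at 0.33, the splicing factor gene Sfrs5, at 0.22, Aldh6a1, at −0.21, the kinase gene Rps6ka5, at −0.19, and AK028965, at −0.18. All of these had adjusted p = 0.999 (limma). The difference of AY182512 not set against the chromosome was 0.43, and it was −0.05 without HCC 2, −0.34 without liver 2 and 1.29 without liver 1. That of Sfrs5 was 0.32, and 0.10 without liver 1, where 1 probe read −3.31 and 0.25 on arrays of opposite dye. At single probes the count was 0 of 1512 at either threshold, where 0% of autosomal probes passed the adjusted and 7.4% the unadjusted threshold. No Chr12 probe had all HCC on one side of all livers, where 8.52% of autosomal probes did. A probe that follows its chromosome cannot do so here, since Chr12 was raised in some HCC and lowered in others. These counts thus say little about single probes.

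Short stretches of Chr12 departed from the rest of the chromosome in livers as well as in tumours. In many of them the size or direction went with the mouse, but not in that of Trim9 and Txndc1. Segmentation against the reference, where a stretch is focal if its mean lies at least 0.3 from the tissue's Chr12 median, gave 2, 3, 2, 3 and 6 focal stretches in HCC 1 to 5 and 3, 6 and 6 in livers 1 to 3. The mean difference, HCC minus livers, was −1.8 stretches (exact two-sided permutation test, p = 0.339). The count went with the noise of the arrays, whose spread between neighbouring probes was 0.17 to 0.20 in HCC 1 to 4 and liver 1, and 0.08 to 0.11 in HCC 5 and livers 2 and 3, and the part of that noise was not tested. HCC minus own liver gave 0 focal stretches in all 5 HCC. The noise of these differences was 0.20 to 0.26 in HCC 1 to 4 and 0.12 in HCC 5. In simulated data with a noise of 0.20, a stretch of 5 probes shifted by 0.5 was found in 2% of sets. Short stretches could thus be missed in HCC 1 to 4. Merged over tissues the stretches against the reference came to 10, and in 5 of these a single probe lay 0.5 or more from the median in a liver.

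The stretches nearer the start of the chromosome were called in tissues of mouse 4033, and mouse 3760 went the same way in part. Around Tmem18, with AK009380, AK134499 and the phosphatase gene Acp1, the mean relative to the Chr12 median was −0.52, −0.54 and −0.55 in HCC 4, HCC 5 and liver 3 and between −0.18 and 0.05 in the other tissues. Probes 247 and 248, which carried no gene name, held this shift and read −2.61 to −1.68 in HCC 4, HCC 5 and liver 3. The probes of the named genes lay between −0.21 and 0.20 in HCC 4, HCC 5 and liver 3. Around Snx13, with the histone deacetylase gene Hdac9, AK133334 and Prps1l1, HCC 4, HCC 5 and liver 3 were at −0.71, −0.47 and −0.51, and HCC 3 and liver 2 at −0.23 and −0.20. The stretch of AK038660, AK040954 and Nampt was called in HCC 5 and liver 3, at 0.47 and 0.43, and read 0.30 in HCC 4, 0.24 in HCC 3 and 0.29 in liver 2.

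Other stretches had mouse 3151 on one side and the male mice on the other. That of Arf6, AK039829, Gm71 and Z11664 read −0.30 in liver 1 and 0.49 and 0.41 in livers 2 and 3. That of Serpina1f, Serpina11 and Serpina9 read 0.52 in liver 1 and −0.52 and −0.50 in livers 2 and 3 and was called in 7 tissues. That of Smek1, AK087910, Catsperb and Tc2n was called in 5, and read 0.40 in liver 1 and −0.34 in liver 3. In the Serpina stretch only probe 1240 lay 0.5 or more from the median in a liver, and in the Catsperb stretch only probe 1164. Neither probe carried a gene name.

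Stretches of 3 further gene groups were called in liver 2, one of the quieter tissues. That of Trim9 and Txndc1 read 0.41 there, and 0.36 and 0.32 in HCC 2 and liver 1, where it was not called. It did not follow the mouse, with 0.06 in HCC 3 of the mouse of liver 2 and 0.06 in HCC 1 of the mouse of liver 1. Its only probe 0.5 or more from the median in a liver carried no gene name. That of AK144409 and Ttc8 read −0.31, with 0.38 in liver 1 and 0.32 in HCC 2, not called either. That of Zfp386 and Vipr2 read −0.35, with the other tissues between −0.27 and 0.18. The stretch of AK136471, BC108384, AY182512 and M13788 was called in 5 tissues, at 0.73, 0.80 and 0.64 in HCC 1, HCC 2 and liver 1 and −0.88 and −0.82 in HCC 3 and liver 2. Relative to the chromosome the 32 genes of these stretches differed between HCC and livers by −0.19 to 0.33, with none called (limma) and 0 at an unadjusted p under 0.05.

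At the level of single probes 17 of the 1512, or 1.12%, lay at least 1 log2 unit from the Chr12 median in at least 1 liver, against 0.808% of autosomal probes. Values of single probes are relative to that median. The 17 probes were chosen in the livers, so the livers' own values are a description. Those described below were singled out after the tumours' values were seen too, and a tumour shares its mouse with its liver. Among the 17, probe 629 between Trim9 and Txndc1 read 1.22, 0.51 and 1.43 in liver 1, HCC 1 and HCC 2. It read 1.70 and 1.39 in liver 2 and HCC 3, and −0.01, −0.04 and 0.43 in liver 3, HCC 4 and HCC 5. HCC 1 and HCC 5, of different mice, thus lay close together there. Whether the tissue or the reference DNA carried a difference in sequence or copies at a probe cannot be told apart.

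Probe 1240, between Serpina1f and Serpina11, read 3.02 in unaffected liver 1 and 2.66 and 2.97 in HCC 1 and HCC 2 of the same mouse. It read −3.30 in liver 2 and −3.30 in HCC 3, −3.01 in liver 3, and −2.74 and −2.76 in HCC 4 and HCC 5. Probe 1164, between AK087910 and Catsperb, gave 3.18, 2.52 and 3.33 in the tissues of mouse 3151, −1.31 and −2.68 in liver 2 and HCC 3, and −3.32, −3.73 and −3.27 in liver 3, HCC 4 and HCC 5. At both probes mouse 3151 lay on one side and mice 3760 and 4033 on the other, in tumours and livers alike. Mouse 3151 was also the female, with a male reference, so that mouse, sex and reference cannot be told apart here.

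Another set of probes separated mouse 4033 from the others. Probe 247, between Tmem18 and AK134499, read −2.61, −2.44 and −2.26 in liver 3, HCC 4 and HCC 5, against 0.19 and −0.29 in liver 2 and HCC 3 and −0.05, −0.86 and −0.33 in liver 1, HCC 1 and HCC 2. In mouse 3151 its forward and dye-swap arrays lay on opposite sides of 0, at −1.54 and 1.41 in liver 1. Snx13, a sorting nexin of endosomes, had a probe at −1.84, −1.98 and −1.77 in mouse 4033, −0.67 and −0.95 in mouse 3760, and 0.21, 0.25 and 0.07 in liver 1, HCC 1 and HCC 2. The second probe of Snx13 read 0.07, −0.48 and −0.19 in mouse 4033, so that the shift did not span the gene's probes.

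Nampt, the enzyme that starts the salvage of nicotinamide into NAD, had the opposite direction at probe 290. It read 2.07, 2.02 and 2.19 in liver 3, HCC 4 and HCC 5, 1.47 and 1.31 in liver 2 and HCC 3, and 0.00 in liver 1 with 0.00 and 0.02 in HCC 1 and HCC 2. The other Nampt probe lay between −0.32 and 0.48 in every tissue. As the mean of both probes, the log2 ratio of Nampt to the reference was above 0 in all 8 tissues, from 0.14 to 1.10, and 0.78 in HCC 5 with its lowered chromosome. In HCC 5 that mean was raised by probe 290 alone. The other Nampt probe there lay 0.09 from the Chr12 median, which was −0.36.

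At Gm71 the neighbouring probes 600 and 601 separated mouse 3151 from both other mice. They read 1.07 and 1.08 in liver 2, 0.93 and 1.08 in liver 3, and −0.74 and −0.61 in liver 1. Every tumour lay on the side of its own liver. Probe 600 read −0.61, −0.61, 1.09, 1.06 and 1.04 in HCC 1 to 5, and probe 601 read −0.79, −0.72, 1.29, 0.49 and 1.11, with the arrays of HCC 4 at −0.33 and 1.33.

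Of the 17 probes 3 were past 1 log2 unit in unaffected liver 1 alone. Probe 858 of Sfrs5, probe 927 of Dnalc1 and probe 992 between Tmed10 and Fos lay at −1.51, 1.00 and 1.08 in unaffected liver 1 and between −0.80 and 0.26 in every other tissue. In liver 1 the arrays of opposite dye gave −3.31 and 0.25 for the Sfrs5 probe, the widest dye gap among these probes at 3.55. The other 2 gave 0.45 and 1.53, and 1.80 and 0.33, on the forward and dye-swap arrays.

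At a lower mark of 0.5 the livers picked 56, 21 and 19 probes in livers 1 to 3, 70 in all, or 4.63% of Chr12 probes beside 4.36% of autosomal probes. Livers 2 and 3 shared 13 of these, all 13 on the same side. Of the 21 picked in liver 2, HCC 3 of that mouse had 18 on the same side past 0.5, HCC 4 and HCC 5 of mouse 4033 had 11 and 8, and HCC 1 and HCC 2 had 3 and 2. Of the 19 picked in liver 3, HCC 4 and HCC 5 had 14 and 11, HCC 3 of mouse 3760 had 14, and HCC 1 and HCC 2 had 2 and 0. Of the 56 in liver 1, the noisiest liver, HCC 1 and HCC 2 had 14 and 18, and the tumours of the other mice 1 to 5.

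The distal stretch from AK136471 to Vipr2, from position 115151862 to 117377679, held shifts whose size differed between a liver and a tumour of the same mouse. It lies toward the end of the chromosome that carries the immunoglobulin heavy chain locus, whose bounds were not mapped here. It held 13 probes, of which 6 lay 0.5 or more from the median in liver 2. Signed so that liver 2 was positive, these 6 had a mean of 1.52 in liver 2 and 1.44 in HCC 3. In mouse 4033 the mean was 0.57 in liver 3, 0.56 in HCC 4 and 0.14 in HCC 5. In mouse 3151 it was −1.0 in liver 1, −1.25 in HCC 1 and −1.56 in HCC 2. HCC 5, with Chr12 lowered, was nearer 0 than its liver at 6 of 6 probes, and HCC 2, with Chr12 raised, was farther from 0 at 6 of 6 and HCC 1 at 4 of 6. HCC 3, with Chr12 at −0.28, and HCC 4, at 0.10, each had 3 probes nearer and 3 farther. The 6 probes were chosen by their values in liver 2, and a relation to the level of Chr12 was not tested.

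Probe 1465 of AY182512 read −0.85 in liver 3, −1.04 in HCC 4 and −0.26 in HCC 5, and 2.68, 2.54 and 3.1 in liver 1, HCC 1 and HCC 2. Probe 1462 of AK136471 read −0.68, −0.60 and −0.19 in mouse 4033 and 0.80, 1.30 and 1.52 in mouse 3151. Both arrays of HCC 5 were between −0.38 and 0.01 at probe 1462, and both of liver 3 between −0.70 and −0.66. The Vipr2 probe, in the gene of a receptor for vasoactive intestinal peptide, read −0.59 in liver 3 and −0.20 in HCC 5. These probes were singled out after their values were seen, and the contrast of liver and tumour was not tested.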

How the data were processed

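Genomic DNA of 8 tissues of 3 mice was hybridised on 15 two-colour 44K Agilent arrays. Slides numbered 4 and scan days 2. Per the file headers, the deposited intensity values (processed signals) came from Agilent Feature Extraction 9.1.3.1, which subtracts background and normalises the dyes within an array. The authors' deposited log10 ratios are those of the same program, negated for dye-swap arrays, and served as an alternative. All columns of that table belonged to these arrays.

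Each spot gave a log2 ratio (tissue to reference), with dyes read from the labels. Control spots and outlier spots were left out, spots of one probe averaged, arrays centred on the median autosomal probe with no loess, and both dye orientations averaged to 1 replicate. No Chr12 probe was missing in a tissue. Not well above background were 0.0652% to 2.28% of the 1534 Chr12 spots of an array, and no spot was saturated. The number of arrays limits the precision, and p-values measure the spread between tissues, of which several share a mouse.

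Autosome levels, probes, gene names (mean of their probes) and windows of 50 probes were compared between 5 HCC and 3 livers with limma 3.58.1 (lmFit and eBayes, Benjamini-Hochberg over all features of a kind, threshold 0.05), single values with exact two-sided permutation tests, and segments by optimal partitioning with a penalty of 3 and at least 5 probes. The limma fits and the segmentation were tested on simulated data. Mouse pairs the tissues, since tumours and a liver came from the same animal: deviations from group means correlated at 0.13 to 0.29 within a mouse and −0.21 to 0.09 between mice, over autosomal probes.

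Named were 6 fixed genes, the genes with the highest and lowest difference of each list, genes of focal stretches, up to 4 a stretch, and 5 genes by relative difference. A gene that this rule names is not reported here. Single probes of the mouse-specific shifts were chosen after their values were seen. The heavy chain list, of which Crip1, Crip2 and Tmem121 were measured, had 0 genes called. The members and lists were chosen with earlier results of these data known. Names come from the array design and were matched to the RefSeq gene table of GRCm38.p6. Alternatives were other signals, centrings, filters, windows, penalties, blocks and left-out tissues.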

Additional observations from a re-analysis of the deposited data

Results flagged for a closer look

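The 5 HCC were checked for a tumour that lay far from the other 4 in 56 values, and 6 were marked. Chance marks about 1 in 20 of values chosen without regard to the data. Many of these values were chosen from these same data, so that rate does not hold for them. HCC 5 had 6 focal stretches on Chr12 where the next HCC had 3. The step at probe 440 was 0.22 in HCC 1, against −0.02 to −0.01 in the other HCC. Its position was chosen in HCC 1, so this mark followed from that choice. Fos relative to the chromosome was −0.14 in HCC 1, with the others between 0.02 and 0.06. AK028965 was −0.46 in HCC 1, with the others from −0.09 to 0.06, and BC108384, in the distal stretch, was −0.43 in HCC 3, with the others from −0.03 to 0.13. AK009380 was 0.33 in HCC 1, on the raised side of the step, with the others from −0.19 to −0.05.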

How the results depend on the processing

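The difference of the Chr12 level was 0.10. With mouse as a replicate block it was 0.06 (adjusted p = 0.774), and it passed the test under no alternative. It was −0.026 with scan day as a block and −0.18 with slide as a block, and ranged from −0.020 (without HCC 2) to 0.21 (without HCC 5) when 1 tissue was left out, and the cause was not tested. The absolute difference of 0.34 kept its direction throughout. It missed the threshold at 0.32 under normexp, 0.37 with mode centring, 0.31 with forward arrays alone and 0.32 with the mouse block (exact sign-flip test of the differences per mouse, p = 0.25, the smallest 3 mice allow), and lay between 0.28 and 0.40 with 1 tissue left out, where fewer tissues also leave fewer splits. HCC past the threshold numbered 3, and 1 (HCC 2) at a threshold of 0.5. Focal stretches against own liver numbered 0, and 2 at a penalty of 2 and 1 with segments of at least 3 probes. The difference in focal stretches against the reference lay between −2.8 and −1.3 with 1 tissue left out. Chr12 probes, genes, relative genes and windows called stayed at 0 in every alternative run, the replicate block by mouse included. The mouse block changed no other call. GC regression and the settings for the step in HCC 1 were chosen after seeing the data. On the noisier arrays a short stretch can be missed, so 0 stretches is not a sign that none exists. Arrays compare each tissue with a reference and give no absolute copy number.

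For the 52 named genes 104 of 832 alternative values, in 32 genes, had the opposite sign to the reported difference, and none of the 832 was called (limma, smallest adjusted p = 0.271). Their directions are not established, and the cause was not tested. Under normexp the difference was 0.11 for AK087910, 0.033 for Rtl1, 0.016 for Xrcc3 and −0.013 for Zfp386. With mode centring the difference was −0.0054 for AK038660, −0.0083 for Fos, −0.034 for Hif1a, −0.0010 for Serpina11, −0.018 for Smek1, −0.021 for Snx13, −0.043 for Tc2n, −0.037 for Trim9 and −0.050 for Zfp386. With centring on all probes the difference was 0.0028 for Rtl1. With forward arrays alone the difference was −0.014 for AK144409, 0.00036 for the gene Max, −0.0076 for Serpina11, −0.082 for Serpina9, −0.029 for Tc2n, 0.032 for Tmem121, −0.017 for Z11664 and −0.059 for Zfp386. Without dim spots the difference was −0.087 for AK038660 and −0.011 for Tc2n. With mouse as a replicate block the difference was −0.0068 for AK144409, −0.011 for BC108384, −0.0071 for Crip1, 0.065 for Gm71, −0.0043 for Hif1a, −0.0065 for Serpina11, −0.045 for Trim9 and −0.047 for Zfp386. With GC regressed out the difference was −0.0011 for Hif1a and 0.047 for Rtl1. With 1 tissue left out it ranged over −0.21 to 0.018 for AK028965, −0.059 to 0.16 for AK038660, −0.20 to 0.024 for AK087910, −0.12 to 0.31 for AK133334, −0.054 to 0.23 for AK134499, −0.16 to 0.41 for AK144409, −0.34 to 1.29 for AY182512 and −0.17 to 0.0073 for Arf6. The range was −0.082 to 0.27 for BC108384, −0.035 to 0.25 for Crip1, −0.079 to 0.16 for Fos, −0.60 to 0.26 for Gm71, −0.070 to 0.17 for Hdac9, −0.13 to 0.14 for Hif1a, −0.10 to 0.075 for Max and −0.0088 to 0.29 for Mycn. It spanned −0.19 to 0.28 for Nampt, −0.0077 to 0.25 for Prps1l1, −0.16 to 0.10 for Rtl1, −0.13 to 0.25 for Serpina11, −0.20 to 0.051 for Serpina3b, −0.058 to 0.21 for Serpina9, −0.056 to 0.13 for Smek1 and −0.22 to 0.27 for Snx13. It ran over −0.068 to 0.13 for Tc2n, −0.062 to 0.26 for Tmem18, −0.12 to 0.19 for Trim9, −0.050 to 0.20 for Txndc1, −0.18 to 0.0025 for Xrcc3, −0.11 to 0.15 for Z11664 and −0.15 to 0.13 for Zfp386.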
